A study of Mus musculus with 18 samples.

Results

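The genes described here encode enzymes of folate one-carbon metabolism in mouse oocytes: the serine hydroxymethyltransferases Shmt2 (mitochondrial) and Shmt1 (cytosolic), the methylenetetrahydrofolate dehydrogenases and formate-folate ligases Mthfd2, Mthfd1l and Mthfd1, the thymidylate synthase Tyms, and the glycine decarboxylase Gldc. They are 7 of the 55291 genes in the count table and were taken by symbol, and all 7 were found. Shmt2 was selected on its own measured values, namely genotype differences of opposite direction at the 2 oocyte stages, so its genotype values, their contrast and its change within each genotype are given as a description with no test. Reads were counted in MII oocytes and GV oocytes of 5-week-old mice, 3 libraries in each of 4 groups and 5 pooled oocytes in each library. GV oocytes (fully grown, with an intact nucleus, before meiosis resumes) were taken 46 h after PMSG, which stimulates follicle growth, and MII oocytes (ovulated, arrested at the second meiotic metaphase) 14 h after hCG, which triggers ovulation.

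The 4 groups were cKO MII, control MII, cKO GV and control GV. All carried the Vps34 floxed/floxed alleles, in the gene Pik3c3 for the class III phosphatidylinositol 3-kinase VPS34. The cKO oocytes also carried Zp3-Cre, a recombinase driven by a promoter active in growing oocytes, and the controls carried no Cre. Libraries held 2609783 to 4696626 gene counts, and oocyte markers were present in every group (9 of 9 genes with counts). Pik3c3 stood at 2.42 to 5.36 counts relative to all gene counts (CPM) in cKO MII libraries against 10.6 to 21.4 CPM in control MII libraries, and at 1.56 to 2.67 CPM in cKO GV libraries against 25.8 to 35.5 CPM in control GV libraries. The column letters T and C were read as cKO and control with those counts already known, so they are no independent check, and every genotype direction rests on that reading. No label used here ties a library to an animal, so p-values measure the spread between libraries. In libraries of pooled oocytes, fewer cells and less RNA per cell cannot be told apart, nor can the amount of an mRNA and how well it was captured.

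In folate one-carbon metabolism, serine gives up a carbon unit to tetrahydrofolate and becomes glycine. In mitochondria SHMT2, MTHFD2 and MTHFD1L carry that unit to formate, which leaves for the cytosol, where MTHFD1 loads it back onto folate for purines, thymidylate and methionine. SHMT1 makes the same serine-to-glycine step in the cytosol, TYMS uses a folate-bound carbon to make thymidylate for DNA, and GLDC feeds carbon from glycine into the mitochondrial pool. Fully grown oocytes make almost no new mRNA, so their mRNA pool during maturation is known mainly for decay and for changes in poly(A) tail length.

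Shmt2 and Mthfd2 were higher at MII than at GV relative to all gene counts, though lower relative to spike-in RNA. Tyms had the largest decrease among the members tested. The promoters of these genes are shown, and any link between them and the stage changes was not tested. They run from 250 bases before to 50 bases after the RefSeq start site (build GRCm38.p6), 5′ to 3′ on the strand of the gene: chr10:127522395-127522694, minus strand, for Shmt2; chr6:83317555-83317854, minus strand, for Mthfd2; and chr5:30073576-30073875, minus strand, for Tyms. Capitals mark motif matches, which in Shmt2 is the palindromic motif of NRF1 (nuclear respiratory factor 1), in Mthfd2 the NF-Y motif CCAAT or its reverse complement ATTGG, and in Tyms the E-box CACGTG.
Shmt2: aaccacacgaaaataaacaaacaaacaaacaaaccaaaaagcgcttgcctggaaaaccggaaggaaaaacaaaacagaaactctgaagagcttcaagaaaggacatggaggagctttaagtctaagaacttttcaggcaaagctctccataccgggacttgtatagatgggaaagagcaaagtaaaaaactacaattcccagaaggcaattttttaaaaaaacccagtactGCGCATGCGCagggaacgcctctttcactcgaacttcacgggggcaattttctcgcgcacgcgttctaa
Mthfd2: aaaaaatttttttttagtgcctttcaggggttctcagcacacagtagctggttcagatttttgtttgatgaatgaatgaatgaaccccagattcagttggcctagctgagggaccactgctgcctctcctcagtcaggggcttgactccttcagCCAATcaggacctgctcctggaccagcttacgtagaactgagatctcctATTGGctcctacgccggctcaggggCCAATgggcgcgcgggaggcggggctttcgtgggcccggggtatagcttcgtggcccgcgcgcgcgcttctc
Tyms: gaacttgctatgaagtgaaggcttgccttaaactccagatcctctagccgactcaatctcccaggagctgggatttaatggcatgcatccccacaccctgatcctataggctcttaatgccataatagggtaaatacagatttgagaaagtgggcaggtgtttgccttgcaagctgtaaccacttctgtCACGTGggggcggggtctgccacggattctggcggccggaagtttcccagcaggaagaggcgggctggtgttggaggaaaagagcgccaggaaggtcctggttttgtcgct

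These motifs, and the ATF4 motif TGATGNAAN, were chosen after the sequences had been seen and were searched on both strands, and no matches overlapped. The NRF1 letters stood at position -19 of the Shmt2 promoter, relative to the start site, and 0.966% of 32817 RefSeq promoters of the same length hold them. Mthfd2 had 3 NF-Y matches, at -96, -47 and -22. An NF-Y match is common, being present in 37.4% of promoters, and 1 each was found in Shmt1, Mthfd1 and Gldc. The Tyms E-box at -61 is a motif held by 7.15% of promoters. The ATF4 letters, which 3.96% of promoters hold, were in none of the 7 windows. No motif searched was shared by the Shmt2 and Mthfd2 windows.

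In the GENCODE annotation of mm10, whole genes lie at chr10:127517123-127522444 (Shmt2), chr11:60788104-60811718 (Shmt1), chr12:76255298-76319803 (Mthfd1), chr10:3973118-4167081 (Mthfd1l), chr6:83305691-83325908 (Mthfd2), chr5:30058202-30073617 (Tyms) and chr19:30098447-30175429 (Gldc). Mthfd1 and Mthfd1l are on the plus strand and the other members on the minus strand, and all are protein-coding. The RefSeq start of Mthfd2 lies inside the longer GENCODE gene.

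At MII, the summed level of the 7 transcripts was mostly Mthfd2, and at GV it was mostly Mthfd2 and Tyms. On a scale of CPM per kilobase of the principal transcript, Mthfd2 made up 77.4% of the sum of group means in cKO MII, 78.7% in control MII, 49.8% in cKO GV and 48.2% in control GV. Tyms made up 1.45% in cKO MII, 0.966% in control MII, 29.6% in cKO GV and 31.7% in control GV. Shmt2 held 13.4% in cKO MII, 13.7% in control MII, 9.39% in cKO GV and 7.76% in control GV. Per kilobase, Mthfd2 was the most abundant member in every group, above the next gene in every library. The order below it differed between stages: Shmt2 and then Mthfd1 followed at both genotypes of MII, while Tyms followed at GV, above Shmt2 and Mthfd1. In cKO GV the levels of Shmt2 and Mthfd1 overlapped, with Shmt2 at 21.5 ± 0.80 and Mthfd1 at 20.5 ± 0.76 CPM per kilobase (SD, n = 3). In control GV Shmt2, at 17.3 ± 3.28 CPM per kilobase, was below Mthfd1, at 22.5 ± 1.80 CPM per kilobase, in every library. At MII the levels of Mthfd1l and Tyms overlapped, as did those of Tyms and Shmt1, in both genotypes. Gldc was last in every group.

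**Figure D1:**
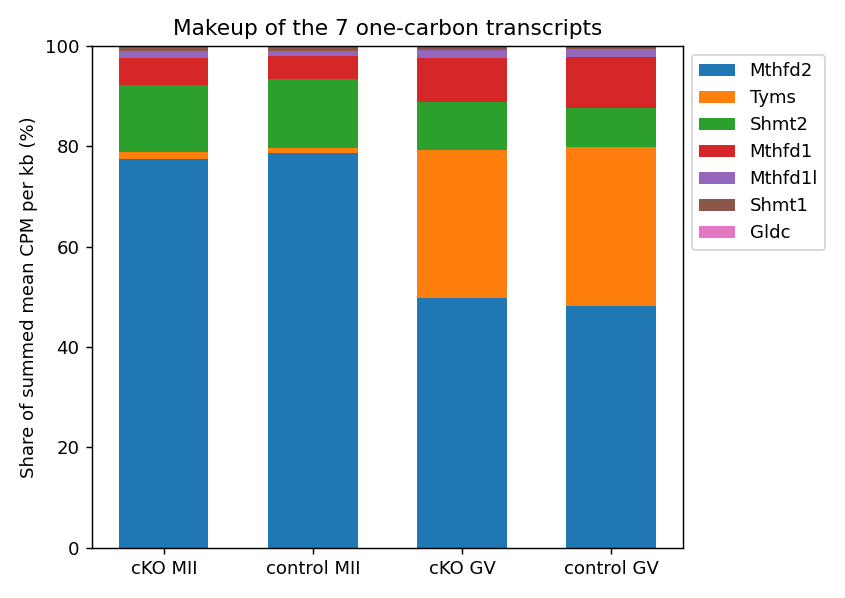
Stacked bars give each gene's share (%) of the summed mean CPM per kilobase of the 7 genes, for cKO MII, control MII, cKO GV and control GV (3 libraries each). Mthfd2 takes 77.4% and 78.7% of the bar in cKO and control MII oocytes, and Tyms is a thin band there against 29.6% and 31.7% in cKO and control GV oocytes.

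The stage comparison asks which of these mRNAs differ between ovulated MII oocytes and GV oocytes, over both genotypes. Relative to all gene counts, Shmt2 and Mthfd2 were higher at MII, although both were lower relative to the ERCC spike-in RNAs; Tyms and Mthfd1 were lower at MII on both scales. With edgeR's quasi-likelihood test, 4 of the 6 members past the filter on low counts were called at an adjusted p under 0.05, and Gldc did not pass that filter. Of all 11607 genes tested, 74.3% were called, 36% higher and 38.4% lower at MII, so the members' share lay near that of all genes.

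Shmt2, whose enzyme starts the mitochondrial branch, had 55.6, 56.6 and 42.4 CPM in cKO MII libraries and 71.4, 63.4 and 62.7 CPM in control MII libraries. It had 48.8, 51.2 and 47.7 CPM in cKO GV libraries and 40.2, 31.7 and 46.6 CPM in control GV libraries. Control MII libraries were all above control GV libraries, whereas cKO MII and cKO GV libraries overlapped. Averaged over genotypes, Shmt2 was higher at MII by 0.54 on the log2 scale relative to all gene counts (SE 0.14, edgeR adjusted p = 0.0023), while with ERCC totals as library sizes its value was -1.51, beside a median of -2.04 over all genes. On that scale Shmt2 was thus 0.53 above the median gene.

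Mthfd2, the dehydrogenase and cyclohydrolase of the next mitochondrial steps, had 287, 293 and 237 CPM in cKO MII libraries and 345, 332 and 356 CPM in control MII libraries. It had 214, 239 and 259.6 CPM in cKO GV libraries and 254, 182 and 235 CPM in control GV libraries. All control MII libraries exceeded all GV libraries of either genotype, and cKO MII library 3 lay among the GV libraries. Averaged over genotypes Mthfd2 was higher at MII by 0.55 on the log2 scale relative to all gene counts (SE 0.12, edgeR adjusted p = 3.1e-04), with a value of -1.47 relative to ERCC totals, which is 0.57 above the median gene. Within genotypes, the edgeR estimate was 0.34 in cKO (adjusted p = 0.0842, not called) and 0.77 in control (adjusted p = 5.4e-04), and relative to ERCC totals these values were -1.97 and -0.96. The difference of the 2 changes, cKO minus control, was -0.44 (SE 0.23, edgeR adjusted p = 0.875), so the stage change was not shown to differ by genotype.

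Mthfd1l, which encodes the mitochondrial ligase that releases formate, had 6.90, 10.9 and 9.98 CPM in cKO MII libraries, 6.82, 7.85 and 9.78 CPM in control MII libraries, 14.9, 8.54 and 11.997 CPM in cKO GV libraries, and 15.6, 12.1 and 11.5 CPM in control GV libraries. Control MII libraries were below control GV libraries, while the cKO libraries of the 2 stages overlapped. The mean stage change of -0.37 (SE 0.22) was not called (edgeR adjusted p = 0.141), and relative to ERCC totals it was -2.41, called at an adjusted p of 1.9e-10 and 0.37 below the median gene.

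Mthfd1, the cytosolic enzyme that joins 3 folate-converting activities in 1 protein, had 29.5, 31.8 and 26.7 CPM in cKO MII libraries and 17.4, 41.4 and 33.1 CPM in control MII libraries, against 64.1, 66.1 and 69.0 CPM in cKO GV libraries and 71.4, 67.8 and 79.2 CPM in control GV libraries. Every MII library lay below every GV library. Mthfd1 fell by 1.08 on the log2 scale (2.12-fold, SE 0.16, edgeR adjusted p = 7.3e-06), and was 1.06 below the median gene relative to ERCC totals.

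Tyms had the largest stage change of the 6 members tested. It had 10.7, 8.48 and 3.92 CPM in cKO MII libraries and 4.63, 7.55 and 7.06 CPM in control MII libraries, against 178, 225 and 240.3 CPM in cKO GV libraries and 250.6, 213 and 205 CPM in control GV libraries. The highest MII library was far below the lowest GV library. Tyms fell by 4.82 on the log2 scale (28.2-fold, SE 0.19, edgeR adjusted p = 1.4e-13), and it fell by 4.66 in cKO and fell by 4.98 in control. Per kilobase, the ratio of Tyms to Mthfd2 was 0.0182 in cKO MII and 0.0123 in control MII, against 0.593 in cKO GV and 0.665 in control GV (means of 3 libraries).

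Shmt1, the cytosolic counterpart of Shmt2, was low at both stages. It had 4.98, 5.15 and 1.78 CPM in cKO MII libraries, 4.63, 4.53 and 7.60 CPM in control MII libraries, 2.18, 6.61 and 5.999 CPM in cKO GV libraries, and 4.06, 3.43 and 3.83 CPM in control GV libraries. The edgeR stage estimate was 0.27 (SE 0.33, adjusted p = 0.463, not called) and -1.64 relative to ERCC totals (adjusted p = 3.2e-04). Per kilobase, the level of Shmt2 was 13.7 to 29.7 times that of Shmt1 in cKO MII libraries, 10.3 to 19.2 times in control MII, 9.68 to 28.0 times in cKO GV and 11.5 to 15.2 times in control GV. The highest cKO MII value, in library 3, rested on 5 Shmt1 counts and the highest cKO GV value, in library 1, on 7. These ranges overlapped between all 4 groups. The gene Smcr8 on the opposite strand overlaps Shmt1 and had 7 to 21 counts a library. Ndufa4l2 likewise overlaps Shmt2 and had 0 to 17 counts, and with the strand setting not given, reads in the overlaps cannot be assigned to 1 gene.

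Gldc, which encodes the decarboxylase of the glycine cleavage system, had 1, 3 and 2 counts in cKO MII libraries, 4, 1 and 3 counts in control MII libraries, 5, 4 and 4 counts in cKO GV libraries, and 0, 3 and 2 counts in control GV libraries. Pooled over 3 libraries this was 0.688 CPM in cKO MII, 0.75 CPM in control MII, 1.32 CPM in cKO GV (exact Poisson 95% interval 0.703 to 2.26) and 0.437 CPM in control GV (0.142 to 1.02), where intervals cover counting error only. Gldc was at the edge of detection at this depth, and no test was made.

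**Figure D2:**
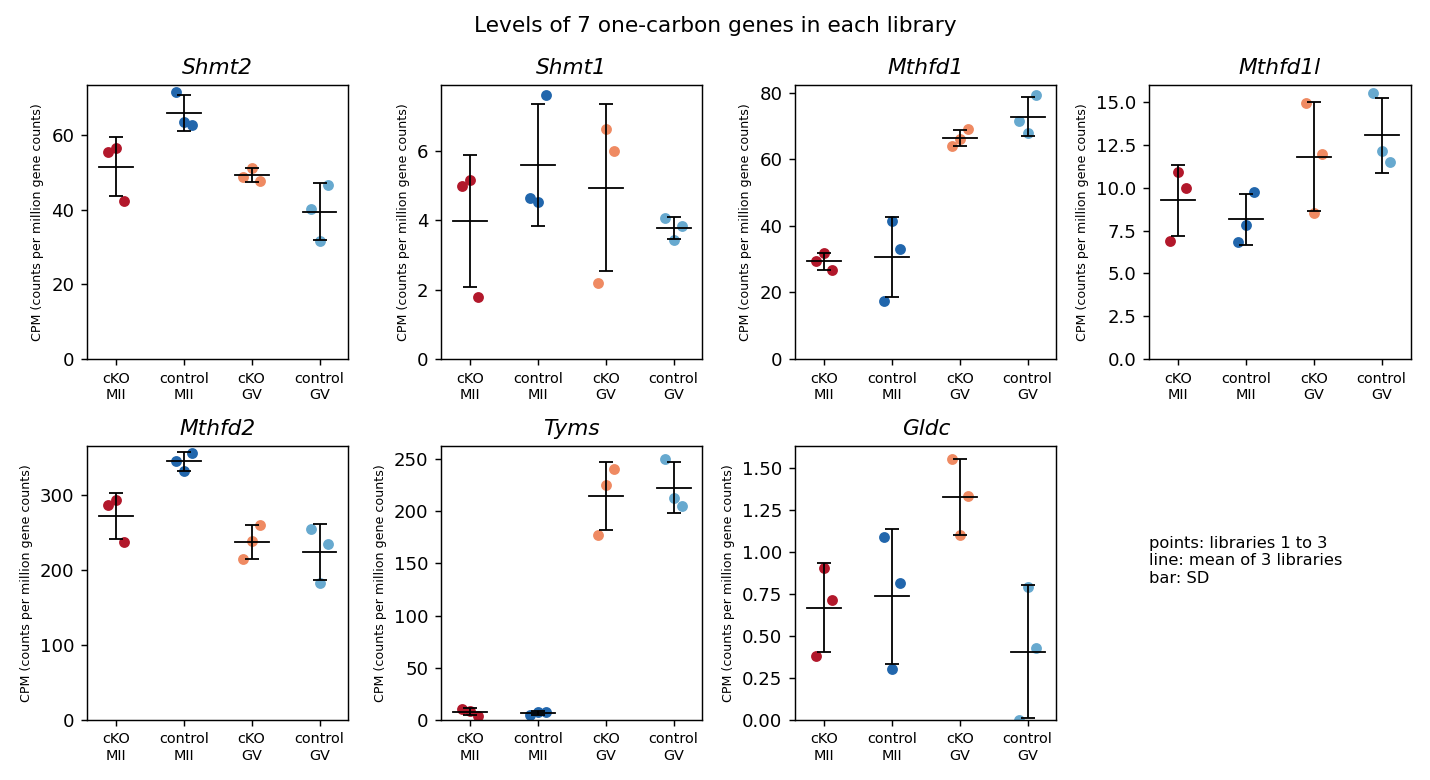
Each panel gives 1 gene in CPM (linear axis from 0) for cKO MII, control MII, cKO GV and control GV, with points for the 3 libraries, a line for their mean and a bar for the SD. Tyms and Mthfd1 sit lower in all MII libraries than in all GV libraries, and the cKO points of Shmt2 lie below control at MII and above control at GV. Relative to spike-ins, Shmt2 and Mthfd2 are lower, not higher, at MII.

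Within each genotype, and leaving Shmt2 untested, 2 of 5 members were called lower and 0 higher at MII in cKO, where 34% of all genes were called lower, 29.5% higher and 63.5% either way. Beside that 0, edgeR's unadjusted p was 0.057 or above for each of the other members tested, and DESeq2 called the same members. In control, 2 of 5 were called lower and 1 higher, where 33.8% of all genes were called lower, 30.1% higher and 63.9% either way. The members called lower were Mthfd1 and Tyms in each genotype, and the member called higher relative to all gene counts, Mthfd2, was lower relative to ERCC totals. For Shmt2 the estimate was 0.20 in cKO and 0.88 in control, or -2.12 and -0.90 relative to ERCC totals. Counting groups that do not overlap, cKO MII lay below cKO GV for Mthfd1 and Tyms, and for Gldc, which was not among the genes tested, a pattern of 37.7% of all genes tested, and above it for none of the 7, against 27.6% of all genes. Control MII lay below control GV for Mthfd1, Mthfd1l and Tyms, against 38.5% of all genes, and above it for Shmt2, Shmt1 and Mthfd2, against 28.9% of all genes.

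Other measures moved with stage. The ratio of gene counts to ERCC counts was 1.51 to 2.21 in cKO MII, 1.85 to 2.42 in control MII, 6.29 to 13.1 in cKO GV and 4.35 to 8.69 in control GV libraries. The summed level of 18 cumulus and granulosa cell markers was 947 to 1881 CPM in cKO MII (16 of 18 with counts, Amh and Fshr at 0), 1245 to 1549 CPM in control MII (17 of 18, Amh at 0), 351 to 601 CPM in cKO GV (15 of 18, Foxl2, Tnfaip6 and Ptx3 at 0) and 425 to 529.5 CPM in control GV (16 of 18, Tnfaip6 and Ptx3 at 0). Serpine2 alone made up most of each sum, with 797 to 1100 CPM in cKO MII, 1002 to 1354 CPM in control MII, 269 to 498 CPM in cKO GV and 319.5 to 421 CPM in control GV. Not all markers followed the sum: Nr5a2 had 12.4 to 14.6 CPM in cKO MII and 12.1 to 15.5 CPM in control MII, against 17.4 to 20.3 CPM in cKO GV and 16.4 to 23.7 CPM in control GV. The summed level of the 9 oocyte markers was 16066 to 16228 CPM in cKO MII and 17188 to 19531 CPM in control MII, against 26459 to 30595 CPM in cKO GV and 28261 to 38070 CPM in control GV. Zp1, Zp2 and Zp3 were lower in every MII library than in every GV library. In contrast, Oosp1 overlapped between stages in control and was higher in every cKO MII library than in every cKO GV library. Oosp1 had 3690 to 4527 CPM in cKO MII and 2971 to 4784 CPM in control MII, against 2343 to 3484 CPM in cKO GV and 3184 to 4553 CPM in control GV. The summed level of 8 blood and immune markers was 10.9 to 26.1 CPM in cKO MII and 8.45 to 21.7 CPM in control MII, against 47.9 to 77.0 CPM in cKO GV and 49.0 to 80.5 CPM in control GV, with 3 to 5 of the 8 present in each group and Hbb-bs at 0 in all libraries. C1qb alone made up most of each GV sum, with 47.3 to 73.3 CPM in cKO GV and 47.7 to 78.6 CPM in control GV. It had 3.33 to 5.35 CPM in cKO MII and 4.23 to 7.60 CPM in control MII. Cd52 went the other way, with 4.54 to 20.3 CPM in cKO MII and 0.273 to 13.0 CPM in control MII. At GV it had 0 to 0.276 CPM in cKO and 0 CPM in control. The part of these measures in the stage differences was not tested.

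**Figure D3:**
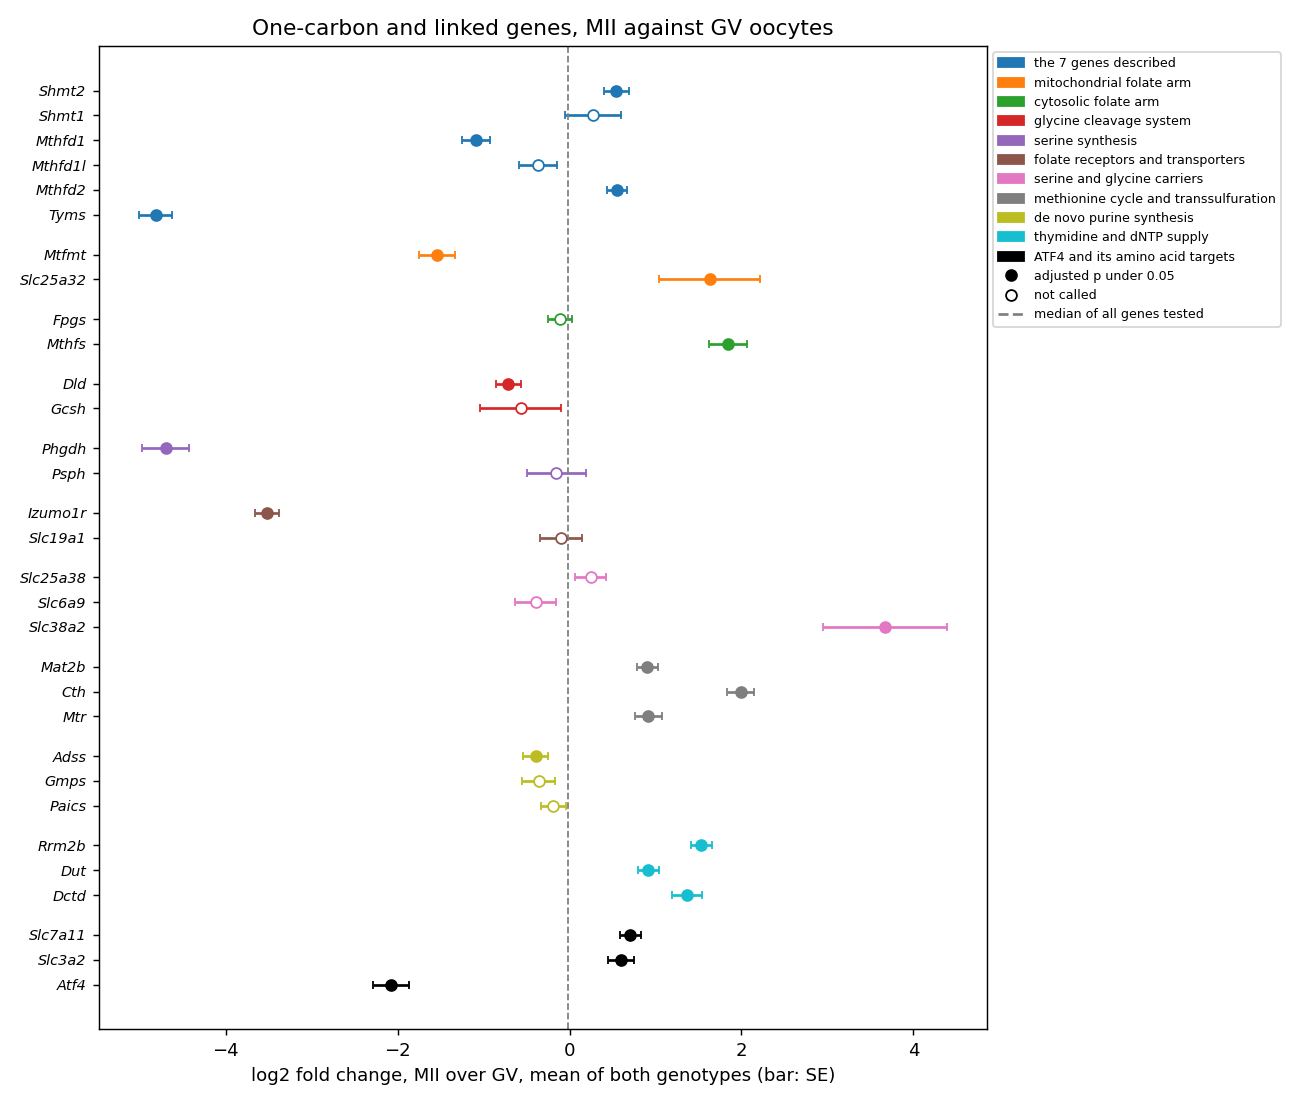
Points give log2 fold changes, MII over GV averaged over genotypes and relative to all gene counts, with SE bars, for the 6 members tested and for the most abundant genes of 10 linked gene lists. Filled points passed an adjusted p under 0.05, and the dashed line is the median of all genes tested. Tyms (-4.82) and Phgdh (-4.70) lie farthest to the left and Slc38a2 (3.67) farthest to the right, and relative to spike-ins all points but Slc38a2 are below 0.

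Among genes around the pathway, changes with stage ran in both directions, as they did over all genes. The 10 lists, which were chosen with earlier results known, hold 79 genes of the table beside the members, and 56 of these were tested. Of them, 16 were called higher and 22 lower at MII relative to all gene counts, and 18 were not called, with a median log2 change of -0.34 against -0.02 over all genes. Of all 11607 genes tested, 74.3% were called, 36% higher and 38.4% lower, so the counts here and by list are not read as a trait of the pathway. By list and counting members, the edgeR calls were 3 higher and 1 lower of 5 tested in the mitochondrial folate arm, 1 higher and 4 lower of 7 in the cytosolic arm, 0 higher and 1 lower of 2 in the glycine cleavage system, 0 higher and 1 lower of 2 in serine synthesis, and 0 higher and 1 lower of 2 among folate receptors and transporters. They were 2 higher and 0 lower of 5 among serine and glycine carriers, 3 higher and 4 lower of 10 in the methionine cycle and transsulfuration, 2 higher and 3 lower of 9 in de novo purine synthesis, 5 higher and 5 lower of 12 in thymidine and dNTP supply, and 2 higher and 4 lower of 8 for ATF4 and its amino acid targets.

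Phgdh, the first enzyme of serine synthesis from glucose, averaged 0.448 ± 0.137 CPM in cKO MII and 1.49 ± 0.245 CPM in control MII, against 26.4 ± 4.81 CPM in cKO GV and 23.6 ± 4.84 CPM in control GV (SD, n = 3). It fell by 4.70 on the log2 scale (26.0-fold, edgeR adjusted p = 1.9e-11), and its level at MII rested on 4 counts in all cKO libraries together and 16 in all control libraries. Izumo1r, which belongs to the folate receptor family and in mouse serves as the egg's receptor for sperm IZUMO1, averaged 35.5 ± 8.01 CPM in cKO MII and 35.1 ± 3.32 CPM in control MII, against 416 ± 37.9 CPM in cKO GV and 477 ± 29.9 CPM in control GV. It fell by 3.52 on the log2 scale (11.5-fold, edgeR adjusted p = 1.4e-13). Atf4, a transcription factor known in other mammalian cells to induce Shmt2, Mthfd2 and Phgdh, fell by 2.08 (edgeR adjusted p = 5.0e-08). Mtfmt, which puts a folate-borne formyl group on the initiator tRNA of mitochondria, fell by 1.54, and Dld, a subunit of the glycine cleavage system and other complexes, fell by 0.71. The purine enzyme Adss (-0.39, edgeR adjusted p = 0.0196) was called but lost the call without control GV 3 (adjusted p = 0.0538) or cKO MII 1 (adjusted p = 0.0579).

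Of the named genes called higher at MII relative to all gene counts, Slc38a2 alone was also higher relative to ERCC totals, and the rest had values below 0 on that scale. Slc38a2, a carrier of small neutral amino acids, changed by 3.67 averaged over genotypes (SE 0.72, edgeR adjusted p = 2.6e-04), and by 1.78 relative to ERCC totals. Its change was 5.34 in cKO (SE 1.11, edgeR adjusted p = 6.4e-04) and 1.99 in control (SE 0.89, edgeR adjusted p = 0.0606, not called). Relative to ERCC totals these were 3.26 and 0.31. Its GV level rested on 3 counts in all cKO libraries together and 17 in all control libraries. One library, cKO MII 1 with 33.3 CPM, stood apart from the other cKO MII libraries (3.94 and 2.14 CPM), and without it the averaged change was 2.66. The same library had the highest summed level of cumulus and granulosa markers, with 194 CPM of Tnfaip6 against 42.1 and 16.8 CPM in the other cKO MII libraries, and 231 CPM of Gja1 against 85.1 and 40.6 CPM. Their part in the Slc38a2 value was not tested. Cth, the last enzyme of transsulfuration, changed by 1.99, Mthfs, which returns stored formyl-folate to the active pool, by 1.84, and Rrm2b, a subunit of ribonucleotide reductase, by 1.53. Slc25a32, the mitochondrial folate carrier, changed by 1.63 averaged over genotypes (SE 0.59, edgeR adjusted p = 0.0183) and lost its call without cKO MII 3 (1.30, adjusted p = 0.0785). Its value was -0.23 in cKO (SE 0.78, edgeR adjusted p = 0.809, not called) and 3.49 in control (SE 0.85, edgeR adjusted p = 0.00166), with a difference of -3.73 (SE 1.16, unadjusted p = 0.00499, edgeR adjusted p = 0.875). The control GV level of Slc25a32 rested on 9 counts in all libraries together. Its libraries were scattered, at 9.54, 14.2 and 1.63 CPM in control MII and 0.311, 4.68 and 6.67 CPM in cKO GV. Smaller changes were called for the deaminase Dctd (1.37), the dUTPase Dut (0.92), methionine synthase Mtr (0.92), the methionine adenosyltransferase subunit Mat2b (0.90), and the cystine carrier subunits Slc7a11 (0.71) and Slc3a2 (0.60). Fpgs (-0.11), Gcsh (-0.57), Psph (-0.15), Slc19a1 (-0.10), Slc25a38 (0.25), Slc6a9 (-0.39), Gmps (-0.36) and Paics (-0.19) were not called, and Mthfd2l, Amt, Psat1 and Folr1 did not pass the filter. Gcsh gained a call without cKO MII 1 (-1.42, edgeR adjusted p = 0.0109). Gmps gained one without cKO GV 1 (adjusted p = 0.0313), without control MII 2 (0.0293) and with no filter on low counts (0.0121).

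The genotype comparison asks whether loss of VPS34 goes with a different level of these mRNAs at a given stage. None of the 5 members tested was called at either stage, by edgeR or by DESeq2. At GV, 9 of 10911 genes tested were called (0.0825%, with 0.0183% higher and 0.0642% lower), or 2 without cKO GV library 2 and 4 without control GV library 2, and the smallest unadjusted p among the members was 0.318. At MII, edgeR called 0 of 9677 genes (0%, also 0% in each direction), with 872 at an unadjusted p under 0.05, and DESeq2 called 4. Among the members, Mthfd2 alone had an unadjusted edgeR p under 0.05 at MII. The floxed gene Pik3c3 was called at GV (-3.97, SE 0.32, edgeR adjusted p = 1.5e-04). At MII it was not called (-2.19, SE 0.39, unadjusted p = 1.5e-04, edgeR adjusted p = 0.53). Since the MII test did not call even that difference, the absence of calls there does not show equal levels.

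For Shmt2, the values that chose it were, in CPM, all higher in cKO than in control at GV and all lower at MII. It averaged 49.2 ± 1.83 CPM in cKO GV and 39.5 ± 7.51 CPM in control GV, and 51.5 ± 7.91 CPM in cKO MII and 65.8 ± 4.84 CPM in control MII (SD, n = 3). The log2 fold change of cKO over control was 0.27 at GV and -0.40 at MII, and the value at MII minus that at GV was -0.68. The gap at GV was small, with 47.7 CPM in the lowest cKO library and 46.6 CPM in the highest control library. At MII the nearest values were 56.6 CPM in cKO and 62.7 CPM in control. Relative to ERCC totals the values were 0.71 at GV, where the median gene stood at 0.46, and -0.51 at MII, where it stood at -0.15. On that scale the GV libraries of the genotypes overlapped. Control GV 3, with 219 Shmt2 counts beside 540167 ERCC counts, was above cKO GV 3, with 143 beside 477292. At MII the cKO and control libraries did not overlap on that scale. In CPM, the order seen for Shmt2, with no overlap at either stage, was found in 34 of the 9088 genes tested at both stages (0.374%). The opposite order was found in 8 (0.088%).

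Mthfd2 followed Shmt2 at MII in its values. All 3 cKO MII libraries (287, 293 and 237 CPM) lay below all 3 control MII libraries (345, 332 and 356 CPM), with a log2 fold change of -0.38 (SE 0.14, unadjusted p = 0.0212, edgeR adjusted p = 0.53, not called). Groups that do not overlap, lower in cKO, made up 7.57% of all genes tested at MII, and 8.19% were higher. At GV, cKO and control libraries of Mthfd2 overlapped, with a log2 fold change of 0.04 (SE 0.17, edgeR adjusted p = 1) that took the other sign without control GV library 2 (-0.061). Of the other members, Gldc alone had groups that did not overlap at GV, on 13 counts in cKO and 5 in control. Gldc was not among the genes tested at GV, of which 4.96% were higher and 2.3% lower in cKO without overlap. The log2 fold changes of Mthfd1 (-0.18, SE 0.18), Mthfd1l (-0.18, SE 0.29), Tyms (-0.11, SE 0.17) and Shmt1 (0.33, SE 0.43) at GV were each called by no test, and the first 3 were above 0 relative to ERCC totals (0.26, 0.37 and 0.34), below the median gene. At MII they were -0.08 (SE 0.28) for Mthfd1, 0.16 (SE 0.33) for Mthfd1l, 0.23 (SE 0.41) for Tyms and -0.52 (SE 0.47) for Shmt1, and Mthfd1l was -0.027 relative to ERCC totals.

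The difference between the 2 stages in the effect of genotype was called for 1 of 11607 genes (0.00862%, which was also the share called higher, with 0% lower), Spopl, named after its values were seen, and for none of the 5 members tested. Among them the smallest unadjusted p was 0.079, for Mthfd2 (-0.44, SE 0.23, edgeR adjusted p = 0.875). DESeq2 called 5 genes, and edgeR called 0 to 3 when single libraries were left out: 0 without cKO GV 1, cKO GV 2, cKO MII 2, cKO MII 3 or control MII 2, 2 without control GV 3 or control MII 1, and 3 without control MII 3.

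Around the pathway, edgeR called 0 of the 50 other list genes tested at GV, 0 of 41 at MII, and 0 of 56 in the difference between stages. An unadjusted p under 0.05 was found for 1 of these genes at GV, beside 240 of all 10911 genes tested, for 5 at MII, beside 872 of 9677, and for 6 in the difference between stages, beside 608 of 11607. Of the named list genes other than the members, those with an unadjusted p under 0.05 at MII were lower in cKO, each at an edgeR adjusted p of 0.53: Slc19a1, the reduced folate carrier, at -1.12 (SE 0.37), the mitochondrial glycine carrier Slc25a38 at -0.91 (SE 0.26), Fpgs, which holds folates in the cell by adding glutamates, at -0.72 (SE 0.21), and Slc3a2 at -0.54 (SE 0.18). Other named genes were higher in cKO at MII. Among them were Slc38a2 at 1.17 (SE 0.88), Gmps at 0.44 (SE 0.28), Slc6a9 at 0.40 (SE 0.34) and Slc7a11 at 0.24 (SE 0.14). None of these passed the test.

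**Figure D4:**
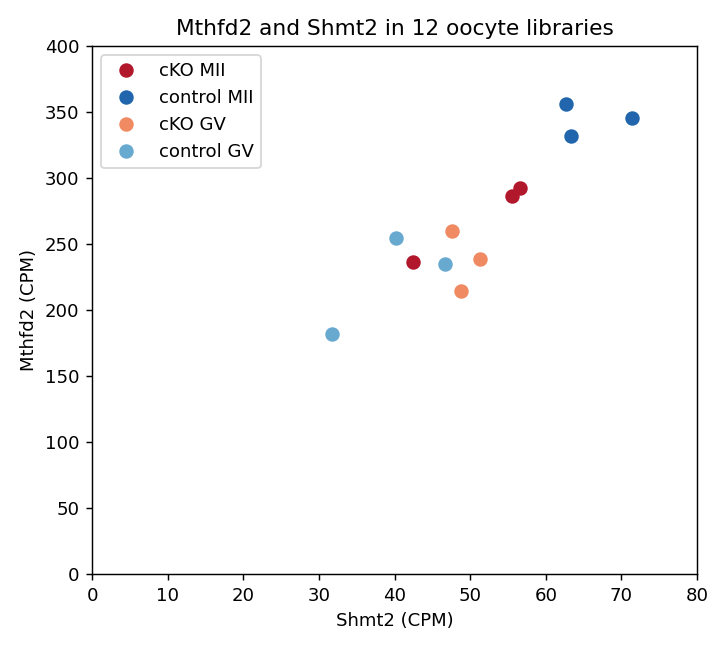
Each point is 1 of 12 libraries, with Shmt2 on the horizontal and Mthfd2 on the vertical axis, both in CPM on linear axes from 0, coloured as cKO MII, control MII, cKO GV and control GV. The 3 control MII libraries lie at the upper right, with 62.7 CPM or more of Shmt2 and 332 CPM or more of Mthfd2, and control GV 2 at the lower left.

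Across the 12 libraries, Mthfd2 was the gene most like Shmt2. Pearson's r of log2(CPM + 1) was 0.896 over 12 libraries, the first of 7580 genes with a mean of at least 10 CPM. The libraries share stage, genotype and depth with each other, so this describes the 12 libraries and carries no p. Next came 1700010I14Rik (0.887), 9830004L10Rik (0.883), the receptor tyrosine kinase Mertk (0.882) and Blcap (0.878). Within 1 stage, r between Shmt2 and Mthfd2 was 0.948 over the 6 MII libraries, rank 106 of 7580 genes. It was 0.656 over the 6 GV libraries, rank 663 of 7578 genes. The libraries of a stage hold both genotypes, and Shmt2 was chosen on its genotype values. These values of r are therefore not independent of that choice. The other members past 10 CPM had r below 0 over the 12 libraries, at -0.63 for Mthfd1, -0.66 for Mthfd1l and -0.64 for Tyms. Per kilobase, the level of Mthfd2 was 5.82 ± 0.26 times that of Shmt2 in cKO MII, 5.76 ± 0.46 times in control MII, 5.31 ± 0.60 times in cKO GV and 6.26 ± 0.71 times in control GV, and it lay between 4.82 and 6.94 in each of the 12 libraries.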

How the data were processed

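Per the labels' protocols, cDNA was made from pooled oocytes by Smart-seq2 with added ERCC RNAs, and libraries with KAPA HyperPlus. The authors deposited whole-number counts per gene, not normalized; fastp, HISAT2, featureCounts and mm10 are named per the submitters' processing notes, while the annotation release, the strand setting and what was done with multi-mapping reads are, for the sources used here, not given. Columns were matched to samples by name, 6 further columns were not used, and the 2-cell samples are not analysed here. CPM was computed over gene counts without ERCC. Levels between genes were divided by the length of the principal transcript (GENCODE vM21).

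The main test was the quasi-likelihood test of edgeR 4.0.16 under R 4.3.3 (TMM scaling, filterByExpr, robust glmQLFit and glmQLFTest, Benjamini-Hochberg over all genes tested, threshold 0.05). Each genotype comparison used the 6 libraries of its stage, and the stage comparisons and the interaction used 1 fit of all 12 libraries. Each SE is the size of the log2 fold change divided by the square root of the F of its test. It is left out for Shmt2 where no test is given. The script was tested on simulated data. Alternatives were DESeq2 1.42.0, ERCC totals as library sizes, no filter, a replicate block, all 12 libraries in 1 fit, leaving out each library, and union exon length, the last chosen after seeing the data. Smart-seq2 reads carry no molecular identifiers. No pair of libraries within a group agreed within sampling noise.

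The members and gene lists were chosen with earlier results of these data known. Named genes were the members, Pik3c3, list genes called in a genotype comparison or the interaction (there were none), the 3 genes of each list with the highest mean CPM, and the 5 genes most like Shmt2; 1 gene under this rule is not reported here. Promoter sequences are from RefSeq, with all 7 members matched by symbol.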

Additional observations from a re-analysis of the deposited data

Results flagged for a closer look

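For Shmt2 and Fpgs every cKO library was above every control library at GV and below every control library at MII. For Shmt2 the log2 fold change of cKO over control at MII minus that at GV was -0.68, and since the gene was chosen for this pattern the difference was not tested. For Fpgs, the enzyme that adds glutamates to folates, the same quantity was -0.87 (edgeR adjusted p = 0.875, not called). Fpgs was picked by this search, so its value is not independent of that choice. Fpgs had 105, 128 and 83.4 CPM in cKO MII libraries against 199.8, 138 and 166 CPM in control MII libraries, and 164, 154 and 191 CPM in cKO GV libraries against 148, 151 and 149 CPM in control GV libraries. This order was found in 34 of 9088 genes tested at both stages (0.374%). Taken 1 stage at a time, 4.96% of genes tested at GV were higher in cKO without overlap. At MII, 7.57% were lower in cKO without overlap.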

How the results depend on the processing

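The calls of the members held under DESeq2, without a filter, under the replicate block and without any 1 library, in each of the 6 comparisons. With ERCC totals as library sizes, all 6 members tested were called, and lower at MII, over both genotypes (4 otherwise), as were 5 rather than 2 in cKO and 4 rather than 3 of either direction in control, and the median of all genes moved to -2.04 for MII over GV, -2.37 in cKO, -1.72 in control, 0.46 for genotype at GV, -0.15 at MII and -0.61 for the difference of stages. The share of stage calls that were higher was 0.976% with ERCC totals against 48.4% with TMM, and at GV 54.5% of the 11 genotype calls against 22.2% of 9.

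With ERCC totals, log2 changes from GV to MII took the other sign for Shmt2 (-1.51), Mthfd2 (-1.47), Shmt1 (-1.64), Slc25a32 (-0.31), Mthfs (-0.18), Slc25a38 (-1.84), Mat2b (-1.14), Cth (-0.0038), Mtr (-1.14), Rrm2b (-0.50), Dut (-1.13), Dctd (-0.65), Slc7a11 (-1.37) and Slc3a2 (-1.39). They did so for Mthfd2 in cKO (-1.97), and for Mthfd2 (-0.96) and Shmt1 (-0.995) in control. So did the genotype values of Mthfd1 (0.26), Mthfd1l (0.37) and Tyms (0.34) at GV and of Mthfd1l (-0.027) at MII, and the difference of stages for Mthfd1 (-0.54), Mthfd1l (-0.40) and Tyms (-0.24). This follows from the scaling, which moves all genes together.

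Leaving out 1 library at a time, values that changed sign ranged from -0.43 to 0.012 for Mthfd1l and from -0.061 to 0.11 for Mthfd2 (genotype at GV), from -0.32 to 0.16 for Mthfd1 and from -0.055 to 0.52 for Tyms (genotype at MII), and from -0.15 to 0.32 for Mthfd1 (difference of stages). They ranged from -0.50 to 0.15 for Shmt1 and from -0.40 to 0.039 for Mthfd1l (MII over GV in cKO), and from -0.34 to 0.054 for Psph and from -0.20 to 0.056 for Slc19a1 (MII over GV). None of these was called.

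Counts over all genes moved more. Genotype calls at GV were 9, against 13 with DESeq2, 28 without a filter, 3 with all 12 libraries in 1 fit, and 2 to 10 without 1 library. At MII they were 0, against 4 with DESeq2, 96 without a filter (Fpgs among them, at -0.74 with an adjusted p of 0.0304), and 0 without any 1 library. In the difference of stages they were 1, against 5 with DESeq2, 3 with ERCC totals, 18 without a filter, and 0 to 3 without 1 library. The cause was not tested.

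Same-numbered libraries did not deviate together (correlations of -0.32 to 0.33), so the numbers were not taken as pairs. With a replicate block, genotype calls were 11 at GV and 0 at MII, calls from GV to MII 8522 (8629 without it), and calls in the difference of stages 1. Union exon lengths in place of the principal transcript gave Mthfd2 73.8% in cKO MII, 75.2% in control MII, and Tyms 25.5% in cKO GV and 27.3% in control GV. Gldc, at 0 to 5 counts a library, did not pass the filter and was not tested.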
